A study of Mus musculus with 18 samples.

Results

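Secreted Wnt antagonists are extracellular proteins that keep Wnt signals from reaching their receptors. The 10 antagonist genes described here, Sfrp1, Sfrp2, Sfrp4, Frzb, Dkk1, Dkk2, Dkk3, Wif1, Sost and Sostdc1, were chosen by name as members of this class, and they are 10 of 38243 genes counted in the mandible of mouse embryos at E16.5. The tissue came from female C57BL/6 embryos, of which 3 carried the Apert syndrome mutation of the fibroblast growth factor receptor gene on 1 allele (Fgfr2+/S252W) and 3 were unaffected littermates (Fgfr2+/+). The mutation is a knock-in of the germline rather than of 1 tissue. Mandibular bone, Meckel's cartilage (MC) and mandibular condylar cartilage were cut from frozen coronal sections of each head by laser, which gave 18 libraries in 6 groups of 3, and by their codes the 3 tissues came from the same 6 embryos without pooling. RNA was amplified before sequencing, and fragments were counted per gene. The question was at what level each antagonist was present in each tissue, and whether the genotype difference ran in the same direction in bone as in MC.

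Wnt ligands act through Frizzled receptors and the co-receptors LRP5 and LRP6, and their signal drives osteoblast differentiation and bone formation while it opposes the chondrocyte fate of skeletal progenitors. The secreted Frizzled-related proteins (Sfrp1, Sfrp2, Sfrp4 and Frzb, which is also called Sfrp3) and Wif1 bind the ligands themselves. Dkk1, Dkk2, Sost and Sostdc1 bind the co-receptors, and Sost, the sclerostin of osteocytes, is a known brake on bone formation. Dkk3 is a divergent member of the Dickkopf family that does not act through these co-receptors in the same way.

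The labelled tissues were checked against marker lists. The summed level of 8 chondrocyte markers in FPKM, which are fragments scaled by gene length and library total, was between 6615 and 8997 in the 6 condylar libraries, between 73.9 and 1254 in the 6 MC libraries and between 22.5 and 112 in the 6 bone libraries. The aggrecan gene Acan, which chondrocytes need for their matrix, had 441 to 704 FPKM in the condyle, 12.2 to 89.6 in MC and at most 1.10 in bone. Cartilage markers were thus detected in MC, at a lower level than in the condyle. The 8 connective tissue markers summed to between 176 and 520 FPKM in MC against 73.5 to 113 in the condyle, and this sum exceeded that of the chondrocyte markers in 3 of the 6 MC libraries, Fgfr2+/+ replicate 1 (520 against 73.9) and Fgfr2+/S252W replicates 2 (205 against 192) and 3 (308 against 278). A level in MC below is that of a captured region with both kinds of marker, whose parts were not measured separately. Osteoblast markers summed to between 7260 and 13048 FPKM in bone, between 1947 and 5849 in the condyle and between 149 and 892 in MC. Counts per library were between 8218548 and 15585778. The RNA Gm42418 took between 24.1% and 39.4% of an MC library against at most 9.33% of a bone library, so normalized counts below are counts per library total (CPM) after TMM scaling, in which such a share is balanced out.

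Of the bone and MC libraries, 3 stood apart from the others of their group. Fgfr2+/+ MC replicate 1 had a summed chondrocyte level of 73.9 FPKM, against 192 to 1254 in the other 5 MC libraries, and its osteoblast (892 against 149 to 377), osteoclast (120 against 15.6 to 26.1) and connective tissue (520 against 176 to 308) levels were above them. FPKM leave out the TMM factor, which was 1.09 in this library and 0.491 to 0.734 in the other 5, so part of these gaps is the scale. The connective tissue marker Aspn had 147 FPKM in it against 47.0 to 78.6, and 321 normalized counts against 184 to 265. Fgfr2+/S252W MC replicate 1 had a chondrocyte level of 1254 FPKM, against 192 and 278 in the other Fgfr2+/S252W MC libraries. Fgfr2+/+ bone replicate 3 had an osteoblast level of 13048 FPKM against 8267 and 7260 in its group. The Fgfr2+/S252W bone libraries had between 10771 and 12483 FPKM, so this control lay nearer to the mutants than to the other controls. The mitochondrial share of counts moved with the genotype in bone, from 36.0% and 34.8% in Fgfr2+/+ replicates 1 and 2 to between 23.4% and 23.6% in the 3 Fgfr2+/S252W libraries, and Fgfr2+/+ replicate 3, with 20.4%, lay near the mutants. In the condyle, replicate 3 of both genotypes had the highest osteoblast levels, 4294 FPKM against 2653 and 1947 in Fgfr2+/+ and 5849 against 2046 and 2240 in Fgfr2+/S252W. Most of these 2 sums was Ibsp, with 2867 FPKM in Fgfr2+/+ and 3728 in Fgfr2+/S252W replicate 3. Col10a1 (1385 and 883 FPKM) and Ihh (47.5 and 39.4), which are not osteoblast markers of the list, were also highest there in their groups. These 2 libraries also had the highest condylar Dkk1, Frzb and Wif1 of their groups, and Fgfr2+/+ replicate 3 the highest Sfrp2, Dkk2 and Sostdc1. The call on Dkk1 between condyle and MC was lost without Fgfr2+/+ condylar replicate 3 (limma adjusted p = 0.0608). It was also lost without Fgfr2+/+ MC replicate 1, 2 or 3 (limma adjusted p = 0.0748, 0.102 and 0.0911). In tissue samples such as these, fewer cells of a type and less RNA per cell cannot be told apart.

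Levels of the antagonists in control embryos differed between tissues, and the order of the members was a different one in each. Per gene length, the leading antagonists of Fgfr2+/+ bone were Wif1 with 48.4 ± 21.8 FPKM (SD, n = 3), Dkk1 with 37.0 ± 25.5, Dkk3 with 29.1 ± 2.44 and Frzb with 23.5 ± 10.6. Each of these overlapped its neighbour in that order, and so did each pair below them down to Sost (2.42 ± 1.32) and Dkk2 (2.04 ± 0.431). In Fgfr2+/+ MC, Sfrp2 stood first with 34.3 ± 10.7 FPKM and did not overlap Dkk3, the next, with 14.6 ± 3.94. Frzb, Sostdc1, Wif1, Dkk2 and Sfrp1 followed between 7.01 and 3.27 FPKM with overlapping libraries, Sfrp4 had 0.501 ± 0.513 and Dkk1 0.123 ± 0.180, and no fragment of Sost was counted in MC. In the Fgfr2+/+ condyle, Frzb led with 102 ± 12.1 FPKM, followed by Wif1 with 51.4 ± 8.43 and Sfrp1 with 16.2 ± 0.946, and these 3 did not overlap one another. Dkk1 (5.23 ± 3.50) and Dkk3 (4.27 ± 1.12) came next, and the other 5 had means between 0.532 and 1.17 FPKM.

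**Figure D1:**
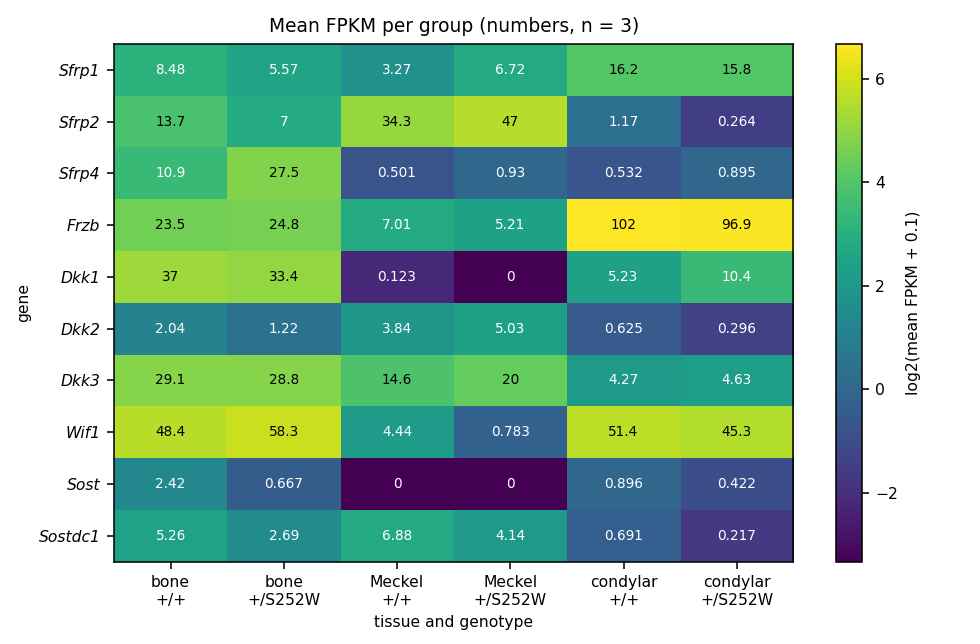
Mean FPKM (number in each cell, n = 3 libraries) of the 10 antagonists, in rows, for each tissue and genotype, in columns, with the colour scale in log2(FPKM + 0.1). Sfrp2 leads in both MC groups, Frzb in both condylar groups and Wif1 in both bone groups.

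Between tissues of the control embryos, 6 of the 9 members that passed the filter on low values had a level in bone unlike that in MC (adjusted p below 0.05 in limma, over 11469 genes), and so had 34% of all genes. 8 of 9 differed between bone and condyle (37.4% of all genes) and 8 of 9 between condyle and MC (45%). The filter asked for more than 1 FPKM in no fewer than 50% of the libraries and dropped Sost alone among the members, so values of Sost come from the same fit after edgeR's filterByExpr, which kept 14881 genes.

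Among the antagonists that bind Wnt ligands, Frzb (ENSMUSG00000027004, chromosome 2 from 80411970 to 80447625) was the gene of the condyle. Its normalized counts were 244, 250 and 353 in the 3 Fgfr2+/+ condylar libraries, 43.8, 46.1 and 80.1 in bone and 41.3, 28.1 and 12.4 in MC. The condylar libraries lay above all others, and the level was higher than in MC by 3.40 on the log2 scale (± 0.37 SE, adjusted p = 3.59e-07 by limma) and higher than in bone (bone minus condyle -2.34, ± 0.29 SE, adjusted p = 2.21e-06 by limma). Bone exceeded MC by 1.06 (limma adjusted p = 0.0370), a call that was lost without Fgfr2+/+ MC replicate 2 (0.0649) or 3 (0.183), or bone replicate 3 (0.157). Wif1 (ENSMUSG00000020218, chromosome 10 from 121033960 to 121100650) had 73.9, 61.8 and 120 normalized counts in Fgfr2+/+ bone and 94.5, 84.1 and 133 in the condyle. In MC it had 1.91 and 3.75 in replicates 2 and 3 and 25.6 in replicate 1, the library with the high osteoblast level. Wif1 was higher in bone than in MC by 3.41 (± 0.59 SE, adjusted p = 0.000242 by limma), and by 4.62 without the 2 control libraries that stood apart (limma adjusted p = 5.40e-05).

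Sfrp2 (ENSMUSG00000027996, chromosome 3 from 83766321 to 83774316) had the reverse pattern. Its normalized counts in Fgfr2+/+ embryos were 45.4, 167 and 130 in MC, 28.8, 16.3 and 19.8 in bone and 0.0751, 0.914 and 5.68 in the condyle, so that no 2 tissues overlapped. The MC level exceeded that of the condyle (condyle minus MC -6.87, ± 1.07 SE, adjusted p = 3.22e-05 by limma) and that of bone (bone minus MC -2.15, ± 0.44 SE, adjusted p = 0.000977 by limma). Sfrp4 (ENSMUSG00000021319, chromosome 13 from 19623175 to 19632821) was counted mainly in bone, with 208, 280 and 192 fragments in the Fgfr2+/+ bone libraries against at most 20 in any Fgfr2+/+ cartilage library. The difference from MC was 4.93 (± 1.34 SE, adjusted p = 0.00795 by limma), and without MC replicate 1, in which no fragment was counted, it was 2.58 and no longer passed (limma adjusted p = 0.0708). Sfrp1 (ENSMUSG00000031548, chromosome 8 from 23411502 to 23449632) had 60.3, 59.2 and 65.9 normalized counts in the Fgfr2+/+ condyle, 36.1, 24.9 and 26.6 in bone and 17.2, 25.6 and 20.2 in MC. It was higher in the condyle than in MC by 1.61 (± 0.21 SE, adjusted p = 4.14e-06 by limma) and lower in bone than in the condyle (-1.10, ± 0.17 SE, adjusted p = 4.95e-05 by limma), while bone and MC overlapped and differed past the threshold only without Fgfr2+/+ MC replicate 2 among the single libraries left out (limma adjusted p = 0.0424).

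Of the antagonists of the co-receptors, Dkk1 (ENSMUSG00000024868, chromosome 19 from 30545863 to 30549665) was almost absent from MC. In the 3 Fgfr2+/+ libraries 8, 0 and 1 fragments were counted, and in the 3 Fgfr2+/S252W libraries 0, 0 and 0. Normalized counts in Fgfr2+/+ bone were 54.9, 35.5 and 114, and in the condyle 8.34, 4.74 and 21.4. The groups did not overlap, and bone exceeded the condyle by 2.72 (± 0.60 SE, adjusted p = 0.00116 by limma). In Fgfr2+/S252W embryos the mean of bone was at least 105-fold higher than that of MC, taking 3 fragments per MC library as the limit that a count of 0 allows (counting error only). Sost (ENSMUSG00000001494, chromosome 11 from 101962458 to 101967015) had 50, 32 and 102 fragments in Fgfr2+/+ bone, 7, 14 and 38 in the condyle and 0 in all 6 MC libraries. With the same limit its mean in Fgfr2+/+ bone was at least 8.09-fold higher than in MC.

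Dkk2 (ENSMUSG00000028031, chromosome 3 from 132085292 to 132180293) went with Sfrp2. It had 8.83, 22.4 and 41.1 normalized counts in Fgfr2+/+ MC, 5.22, 7.48 and 5.08 in bone and 0.902, 0.582 and 4.96 in the condyle. MC lay above both other tissues, over bone (bone minus MC -1.62, ± 0.51 SE, adjusted p = 0.0184 by limma) and over the condyle (condyle minus MC -3.68, ± 0.77 SE, adjusted p = 0.000624 by limma). The call over bone was lost with DESeq2 (adjusted p = 0.0681) and, in limma, without Fgfr2+/+ MC replicate 3 (adjusted p = 0.0928) or bone replicate 1 (0.0543) or 3 (0.0627). The difference between bone and condyle passed (2.06, limma adjusted p = 0.0467), but not with the embryo as a block (limma adjusted p = 0.0849), nor without any 1 of the Fgfr2+/+ bone libraries or condylar replicates 1 and 2 (limma adjusted p between 0.0600 and 0.193). Sostdc1 (ENSMUSG00000036169, chromosome 12 from 36314169 to 36318452), which also binds bone morphogenetic proteins, had 27.4, 8.03 and 4.31 normalized counts in Fgfr2+/+ MC and 13.8, 5.36 and 3.27 in bone, which overlapped. In the condyle 1, 0 and 38 fragments were counted, and the condyle was lower than MC (condyle minus MC -5.63, ± 1.34 SE, adjusted p = 0.00189 by limma). Dkk3 (ENSMUSG00000030772, chromosome 7 from 112116019 to 112159057) had 68.5 to 89.9 normalized counts in Fgfr2+/+ bone, 40.5 to 117 in MC and 8.56 to 15.7 in the condyle. It was higher in bone than in the condyle by 2.65 (± 0.32 SE, adjusted p = 1.99e-06 by limma), and bone and MC overlapped.

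**Figure D2:**
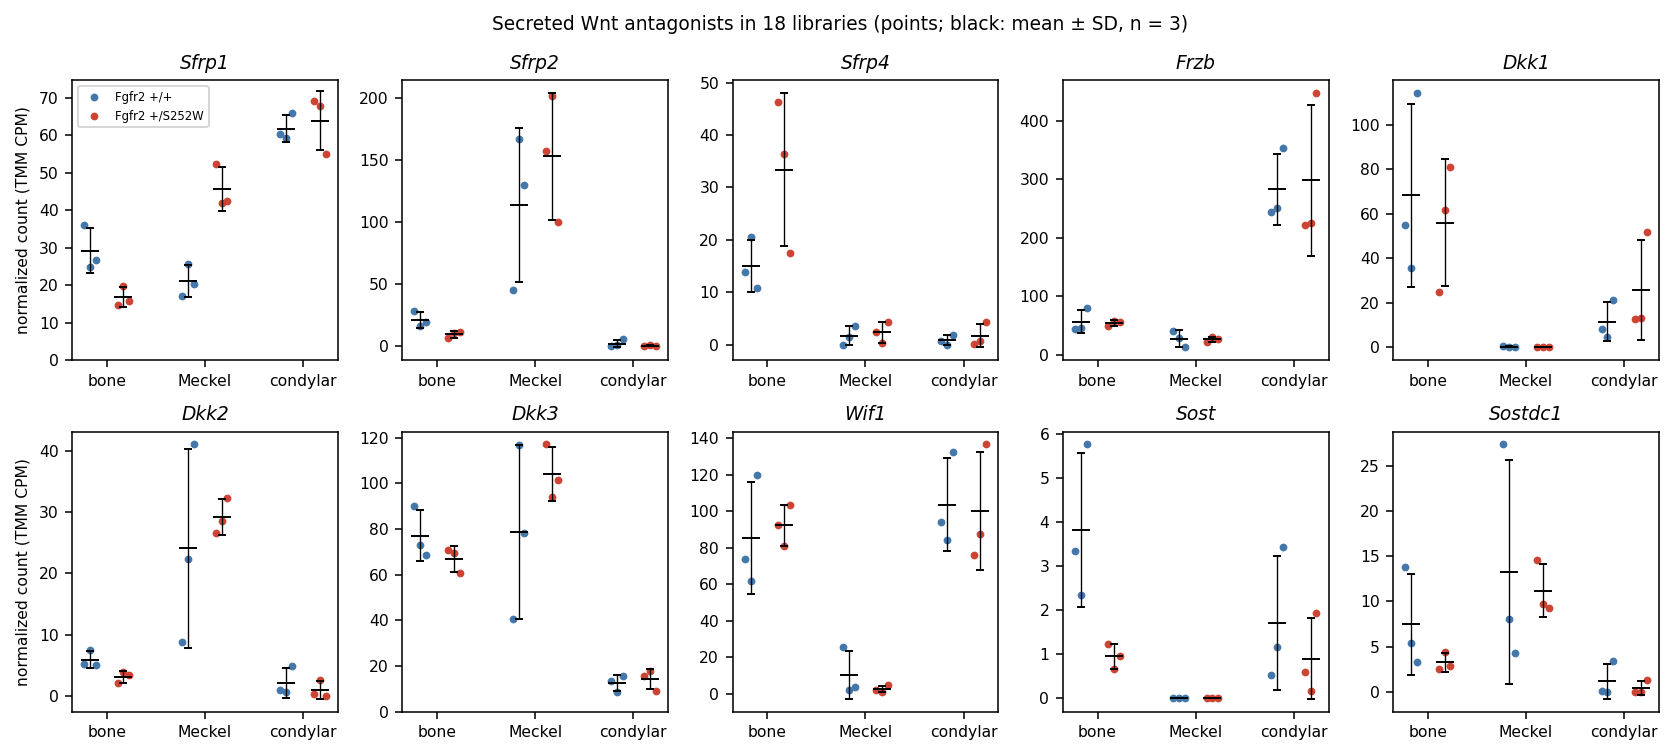
TMM-normalized CPM (y axis, linear, one scale per gene) of the 10 antagonists in the 3 tissues (x axis) for Fgfr2+/+ (blue) and Fgfr2+/S252W (red) libraries, with points for libraries and black bars for the mean ± SD (n = 3). Dkk1 and Sost lie at or near 0 in MC, Sfrp2 and Dkk2 are highest there, and the red points of Sfrp1 lie below the blue points in bone and above them in MC.

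The 250 bases before the transcription start are printed for 3 members at the ends of this tissue pattern, Sfrp2 and Dkk2, which were highest in MC, and Sost, which was not counted there. They are RefSeq sequences of build GRCm38.p6, written 5′ to 3′ on the strand of the gene, and capitals mark a match to 1 of 3 short motifs on either strand, the TATA box TATAAA, the RUNX core TGTGGT and the TCF/LEF core CTTTGA. RUNX proteins are transcription factors of bone and TCF/LEF proteins those of the Wnt signal.
Sfrp2, chr3:83766071-83766320, plus strand: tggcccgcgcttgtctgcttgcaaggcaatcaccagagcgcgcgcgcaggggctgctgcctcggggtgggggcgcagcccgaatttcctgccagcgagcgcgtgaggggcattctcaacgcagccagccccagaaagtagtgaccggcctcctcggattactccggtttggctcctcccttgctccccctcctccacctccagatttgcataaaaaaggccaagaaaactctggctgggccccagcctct
Dkk2, chr3:132085042-132085291, plus strand: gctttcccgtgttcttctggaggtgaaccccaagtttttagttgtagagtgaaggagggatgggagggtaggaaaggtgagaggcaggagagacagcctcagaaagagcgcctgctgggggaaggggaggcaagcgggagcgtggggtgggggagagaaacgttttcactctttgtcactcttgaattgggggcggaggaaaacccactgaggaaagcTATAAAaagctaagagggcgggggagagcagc
Sost, chr11:101967016-101967265, minus strand: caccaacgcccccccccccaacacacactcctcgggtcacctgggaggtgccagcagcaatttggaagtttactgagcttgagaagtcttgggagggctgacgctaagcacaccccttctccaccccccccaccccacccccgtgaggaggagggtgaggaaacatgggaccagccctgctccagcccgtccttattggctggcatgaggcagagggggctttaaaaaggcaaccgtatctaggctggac
The window of Dkk2 holds TATAAA 32 bases before the start, and no match to any of the 3 motifs lies in the windows of Sfrp2 and Sost. Of 32851 mouse promoter windows of this length, 12.4% hold TATAAA, 14% TGTGGT and 13.8% CTTTGA. A match is a stretch of letters and not a measured binding site, and 6 of the 10 members had a window in the table used. The windows of the other 3 are not printed because they reach into the Ensembl gene model. That of Dkk1 holds TATAAA and TGTGGT 1 time each and CTTTGA 2 times, that of Frzb CTTTGA 1 time and that of Wif1 TATAAA 1 time.

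In mandibular bone, 0 of 9 members passed the threshold between genotypes (limma, adjusted p below 0.05), where 0.0872% of all genes did, and 3 of 9 had an unadjusted p below 0.05, where 8.13% of all genes did. The genotypes did not overlap in 3 of the 9, Sfrp1, Sfrp2 and Dkk2, all lower in Fgfr2+/S252W bone (9.7% of all genes were lower without overlap), nor in Sost. The median log2 difference of the 9 was -0.30, against -0.001 over all genes. Sfrp1 had the smallest p of the members. Its normalized counts were 36.1, 24.9 and 26.6 in Fgfr2+/+ bone and 14.8, 19.9 and 15.8 in Fgfr2+/S252W bone, so that each mutant library lay below each control. The log2 fold change of Fgfr2+/S252W over Fgfr2+/+ was -0.78 (± 0.19 SE, adjusted p = 0.138 by limma), at rank 42 of 11469 genes by p. With DESeq2 the adjusted p was 0.0488, and without the 2 control libraries that stood apart the difference was -0.83 (limma adjusted p = 0.0338). That call came with the controls at 34.8% and 36.0% of mitochondrial counts and the mutants at 23.4% to 23.6%. With Fgfr2+/+ bone replicate 3 as the lone control, which had 26.6 normalized counts of Sfrp1 at a share of 20.4%, the difference was -0.67 (limma adjusted p = 1.00, with the lone library assumed to vary like the other groups). The part of the mitochondrial share in the bone differences was not tested.

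Sost had the largest difference in bone and the fewest fragments. It had 50, 32 and 102 fragments in the Fgfr2+/+ libraries and 24, 15 and 18 in the Fgfr2+/S252W libraries, or 3.82 ± 1.75 against 0.952 ± 0.282 normalized counts (SD, n = 3). Every Fgfr2+/S252W library lay below every Fgfr2+/+ library, of which replicate 3 was the highest. The log2 fold change was -1.97 (± 0.55 SE, adjusted p = 0.219 by limma), and without the 2 control libraries that stood apart it was -1.57 (limma adjusted p = 0.176). Sfrp2 had 28.8, 16.3 and 19.8 normalized counts in Fgfr2+/+ bone against 6.65, 10.5 and 11.8 in Fgfr2+/S252W bone, with no overlap (limma adjusted p = 0.581). In a fit of the 6 bone libraries alone, the difference was -1.17 and passed (limma adjusted p = 0.0460). Dkk2 had 5.22, 7.48 and 5.08 against 2.05, 3.90 and 3.37, from 40 to 102 fragments per library, a difference of -0.93 (± 0.58 SE, adjusted p = 0.749 by limma). Sostdc1 had 13.8, 5.36 and 3.27 against 2.51, 4.43 and 2.84, which overlapped, with a difference of -0.92 (± 0.65 SE, adjusted p = 0.793 by limma) that was -0.35 without Fgfr2+/+ replicate 1 and -1.44 without replicate 3.

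With Wif1 (0.16), Sfrp4 was 1 of 2 members with a difference in the other direction in bone, and it had the larger one. It had 13.9, 20.5 and 10.8 normalized counts in Fgfr2+/+ bone and 46.4, 36.3 and 17.6 in Fgfr2+/S252W bone, where replicate 3 lay among the controls. The log2 fold change was 1.11 (± 0.47 SE, adjusted p = 0.561 by limma), with a 95% interval from 0.13 to 2.10. The intervals of 6 members covered 0, those of Dkk2, Sostdc1 and the 4 that follow. Wif1 had 61.8 to 120 normalized counts in Fgfr2+/+ and 81.2 to 104 in Fgfr2+/S252W bone, with a 95% interval of the log2 fold change from -0.48 to 0.79, and Frzb had 43.8 to 80.1 and 48.4 to 57.6, with an interval from -0.66 to 0.60. Dkk3 was spread between 60.5 and 89.9 over both genotypes, with an interval from -0.70 to 0.31. Dkk1 had 35.5 to 114 and 24.9 to 81.0, with an interval from -1.21 to 0.61.

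Marker levels of other cells moved with the genotype in bone. Of the 6 osteoclast markers, 4 passed the filter and the 4 lay higher in the Fgfr2+/S252W libraries at an unadjusted p below 0.05, and 0 at an adjusted one (limma), and the list summed to between 1173 and 1575 FPKM against 555 to 771. The 8 connective tissue markers, of which 3 passed the filter and all 3 were lower, summed to between 297 and 367 FPKM against 413 to 662, and the 8 skeletal muscle markers to between 1.98 and 37.1 against 34.5 to 188. Fgfr2+/+ replicate 3, with 413 and 34.5 FPKM, was the control nearest to the mutants in both. The 8 osteoblast markers summed to between 10771 and 12483 FPKM against 7260 to 13048. Of the 7 that passed the filter, 6 were higher and 1 lower, at a median of 0.33. An unadjusted p below 0.05 was found for 1 of them and an adjusted one for 0 (limma). With Fgfr2+/+ replicate 3 as the lone control the median was -0.23. The 8 chondrocyte markers summed to between 82.6 and 112 FPKM in Fgfr2+/S252W and between 22.5 and 66.7 in Fgfr2+/+ bone, a sum made mostly of the collagen gene Col2a1 (61.3 to 88.3 against 9.09 to 48.6 FPKM). Of the 8, 5 had positive and 3 negative differences, 1 at an unadjusted p below 0.05 and 0 at an adjusted one (limma), and Acan was lower in Fgfr2+/S252W bone without overlap (0.214 to 2.92 against 3.74 to 6.82 normalized counts). The 5 osteocyte markers, a cell that is known to express Sost, summed to between 223 and 295 against 114 to 237, which overlapped. Of these 3 passed the filter, 1 higher and 2 lower, at a median of -0.18. No connective tissue marker was at 0 in all bone libraries. The part of these cells in the lower counts of Sfrp1, Sfrp2, Dkk2 and Sost was not tested.

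**Figure D3:**
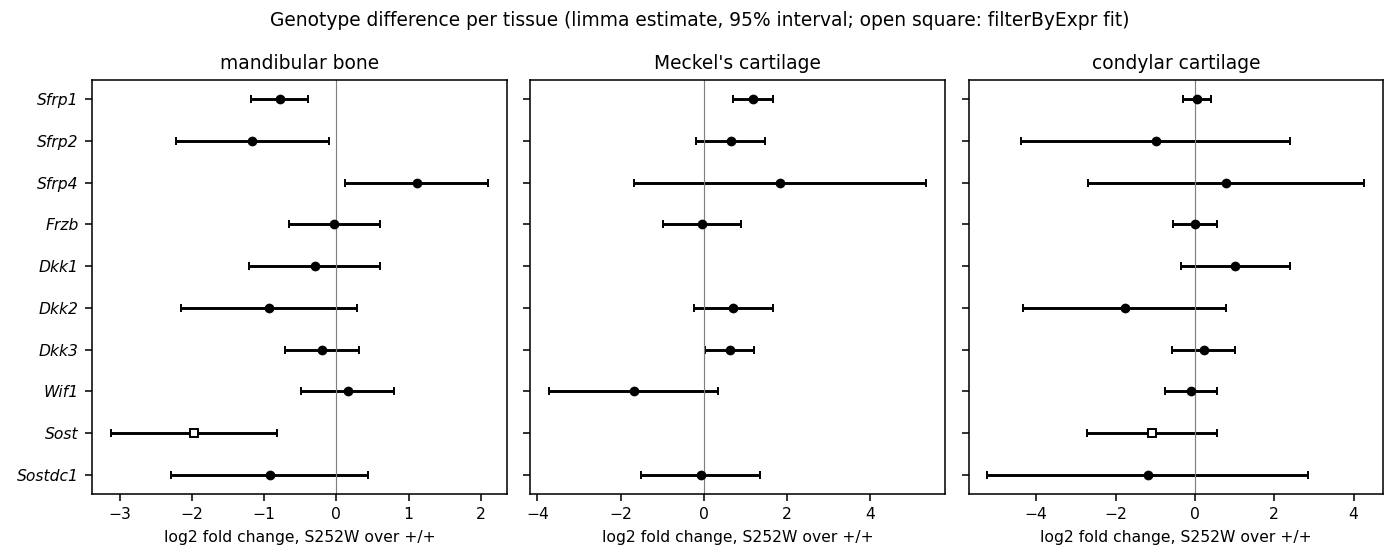
Log2 fold change of Fgfr2+/S252W over Fgfr2+/+ (x axis, one scale per panel) of each antagonist (y axis) in bone, MC and condylar cartilage, as the limma estimate (point) with its 95% interval (bar), and open squares for Sost from the filterByExpr fit. In MC no fold is given for Dkk1 and Sost, and Sfrp1 is the member whose interval lies below 0 in bone and above 0 in MC.

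In MC, 0 of 9 members passed the threshold (0% of all genes did), and 2 had an unadjusted p below 0.05, Sfrp1 and Dkk3, where 15.4% of all genes did. The genotypes did not overlap in 1 member, Sfrp1, which was higher (6.71% of all genes were higher without overlap). Sfrp1 had 17.2, 25.6 and 20.2 normalized counts in Fgfr2+/+ MC and 52.4, 41.9 and 42.5 in Fgfr2+/S252W MC, from 108 to 392 fragments per library. Each mutant library lay above each control, opposite to bone. The log2 fold change was 1.18 (± 0.23 SE, adjusted p = 0.0827 by limma), at rank 5 of 11469 genes, and it passed with edgeR's quasi-likelihood test (adjusted p = 0.0176) and DESeq2 (adjusted p = 7.30e-05), and in limma without Fgfr2+/+ MC replicate 2 (adjusted p = 0.0223) or 3 (adjusted p = 0.0476). Without the 2 control libraries that stood apart it was 1.02 (limma adjusted p = 0.171). Dkk3 had 40.5, 117 and 78.4 normalized counts in Fgfr2+/+ MC and 117, 93.9 and 101 in Fgfr2+/S252W MC, a difference of 0.62 (limma adjusted p = 0.298) that was 0.14 without them.

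The other members of MC turned on Fgfr2+/+ replicate 1. It had the lowest Sfrp2 (45.4), Dkk2 (8.83) and Dkk3 (40.5) of the 6 MC libraries and the highest Wif1 (25.6), Sostdc1 (27.4) and Frzb (41.3). With all libraries the log2 fold changes were 0.64 for Sfrp2, 0.71 for Dkk2 and -1.68 for Wif1 (limma adjusted p = 0.446, 0.464 and 0.419). With the 2 control libraries that stood apart left out they were 0.0043, -0.056 and -0.19. Sfrp4 was counted at 0 to 25 fragments per MC library, with a 95% interval from -1.68 to 5.34. Frzb (-0.04, interval from -0.98 to 0.89) and Sostdc1 (-0.08, interval from -1.52 to 1.36) overlapped between genotypes. Beside these values, all 8 chondrocyte markers were higher in Fgfr2+/S252W MC, by a median of 1.18 on the log2 scale, and 4 of 8 had an unadjusted p below 0.05 and 0 an adjusted one (limma). Their sum was between 192 and 1254 FPKM in Fgfr2+/S252W and between 73.9 and 331 in Fgfr2+/+ MC, and none was at 0 in all libraries of a group. With MC replicate 1 of both genotypes left out, all 8 had negative differences instead, at a median of -0.64 (2 at an unadjusted p below 0.05 and 0 at an adjusted one), while Sfrp1 remained higher at 0.90 (limma adjusted p = 0.242). The 4 osteoclast markers that passed the filter were lower, by a median of -1.61 with all libraries and -0.60 without these 2. Without these 2, the 4 endothelial markers kept by the filter had positive differences (median 1.53, 3 at an unadjusted p below 0.05), as did 6 of 7 osteoblast markers (median 1.07, 1 at an unadjusted p below 0.05), with 0 at an adjusted one in either list. With all libraries these medians were 0.39 and -0.060. Their part in the Sfrp1 difference in MC was not tested.

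In condylar cartilage, 0 of 9 members passed the threshold (0% of all genes), 0 had an unadjusted p below 0.05 (3.06% of all genes), 0 passed with edgeR or DESeq2, and 0 did not overlap (9.77% of all genes). Sfrp1 had 60.3, 59.2 and 65.9 normalized counts in Fgfr2+/+ and 69.2, 67.7 and 54.9 in Fgfr2+/S252W condyle, with a 95% interval of the log2 fold change from -0.29 to 0.41. Frzb had 244, 250 and 353 against 221, 226 and 447 (interval from -0.55 to 0.56) and Wif1 94.5, 84.1 and 133 against 76.0, 87.8 and 137 (interval from -0.75 to 0.57). Dkk1 had 8.34, 4.74 and 21.4 against 12.9, 13.0 and 51.8, a difference of 1.01 (limma adjusted p = 0.998), with replicate 3 the highest in both genotypes. It was 0.46 without the Fgfr2+/S252W and 1.56 without the Fgfr2+/+ replicate 3. Dkk3 ranged from 8.56 to 17.6 over both genotypes. Sfrp2, Sfrp4, Dkk2, Sost and Sostdc1 had at most 63 fragments in any condylar library, and their intervals covered 0.

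The difference between the genotype effects in bone and in MC was tested itself, as the interaction of genotype and tissue. Sfrp1 passed as 1 of 9 members, where 0.0523% of all genes did. On the log2 scale the effect in bone was lower than that in MC (bone minus MC -1.97, ± 0.30 SE, 95% interval from -2.58 to -1.35, adjusted p = 0.0104 by limma), at rank 2 of 11469 genes by p. In bone the mean went from 29.2 ± 5.99 in Fgfr2+/+ to 16.8 ± 2.67 normalized counts in Fgfr2+/S252W embryos, and in MC from 21.0 ± 4.28 to 45.6 ± 5.88 (SD, n = 3). In FPKM, which are scaled by library totals alone, the genotypes also did not overlap in either tissue, with 7.09 to 9.79 against 4.87 to 6.57 in bone and 2.34 to 4.24 against 4.67 to 8.71 in MC. Which genotype set the tissues apart depended on the scale. In normalized counts control bone and control MC overlapped and mutant bone (14.8 to 19.9) lay below mutant MC (41.9 to 52.4), while in FPKM control bone lay above control MC and the mutant tissues overlapped.

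The Sfrp1 interaction kept its direction in all 13 other settings and passed in 9 of them. With equal replicate numbers of the genotypes as a block the call was lost, at a limma adjusted p of 0.0507. Without the 2 control libraries that stood apart it was -1.85 (limma adjusted p = 0.0330), and with the embryo as a block across tissues -1.97 (limma adjusted p = 0.0313). With 1 library left out at a time it was between -2.10 and -1.79, and it lost the threshold without Fgfr2+/S252W MC replicate 1 (limma adjusted p = 0.0724) and without Fgfr2+/+ MC replicate 1 (limma adjusted p = 0.0518). It also lost it without normalization factors (-1.64, limma adjusted p = 0.458), where the median over all genes moved from -0.004 to 0.27. Without MC replicate 1 of both genotypes it was -1.67 (limma adjusted p = 0.0867), without the 3 bone and MC libraries that stood apart -1.73 (limma adjusted p = 0.0441), and with Fgfr2+/+ bone replicate 3 as the lone bone control -1.85 (limma adjusted p = 0.299).

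**Figure D4:**
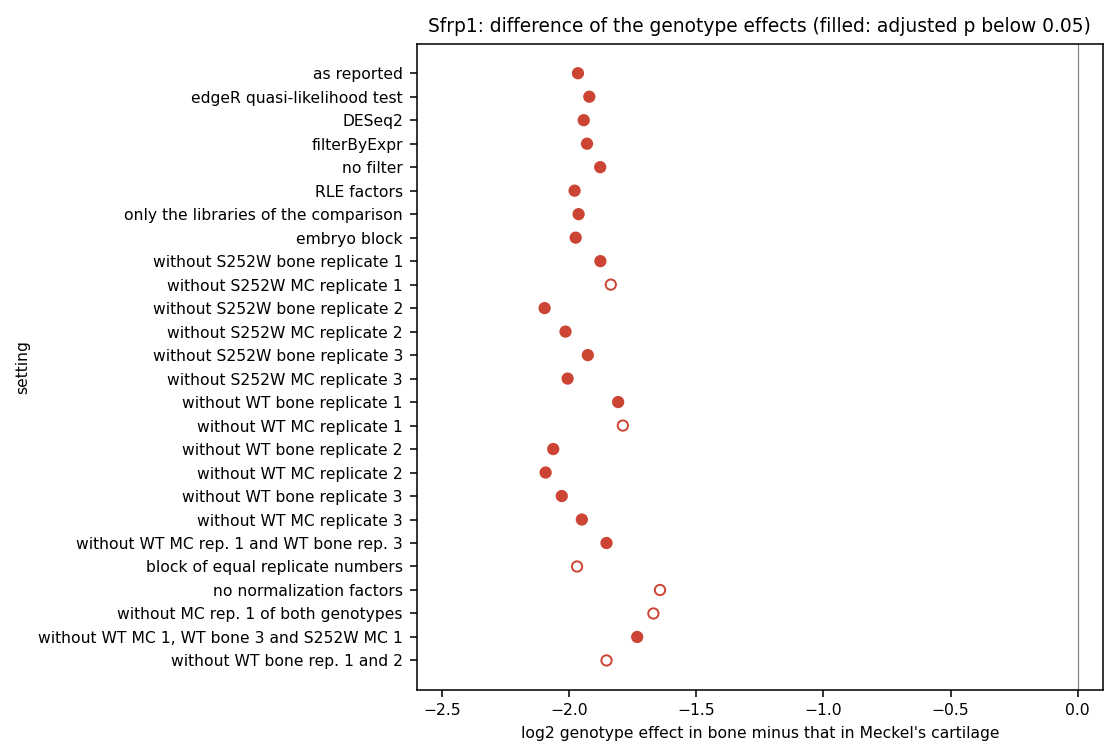
Genotype effect on Sfrp1 in bone minus that in MC (x axis, log2) under 13 other processing settings and with each library left out (y axis), with filled points for an adjusted p below 0.05 and open points above it. All points lie between -2.10 and -1.64, left of the line at 0.

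For the other members the difference between the effects did not pass. Sfrp2 had -1.80 (± 0.65 SE, adjusted p = 0.333 by limma) and Dkk2 -1.64 (± 0.74 SE, adjusted p = 0.433 by limma), both lower in bone and higher in MC with all libraries, and without the 2 control libraries that stood apart -1.20 and -0.97. Dkk3 had -0.82 (limma adjusted p = 0.433) and Wif1 1.84 (limma adjusted p = 0.521), and without them these were -0.41 and 0.64. With Sfrp1, Sfrp2, Dkk2 and Dkk3, 4 of 9 members had an unadjusted p below 0.05, where 10.9% of all genes did. The intervals of Frzb (-1.11 to 1.14), Sostdc1 (-2.83 to 1.13) and Sfrp4 (-4.37 to 2.92) covered 0. For Dkk1 and Sost, at or under the limit of counting in MC, no such difference is given. Dkk1 passed the filter and so remains among the 9 members counted here and in MC. Between bone and condyle, Sfrp1 had -0.84 (SE 0.25, limma adjusted p = 1.00, unadjusted p = 0.00336 in limma's fit), with 1 of 9 members at an unadjusted p below 0.05, where 3% of all genes were, and 0 past the threshold (0% of all genes).

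Across the 18 libraries, which share the 3 tissues as their main source of variation, the genes most like each member by Pearson's r of log2 normalized counts were also found. For Wif1 these were Btla (r = 0.983), Ifitm5 (r = 0.983) and Ibsp (r = 0.98), the last 2 genes of osteoblasts, and for Dkk1 Srpx2 (r = 0.977), Lipi (r = 0.974) and Phex (r = 0.973), the last a gene of osteocytes. Frzb went with Colgalt1 (r = 0.976), Enah (r = 0.976) and Pth1r (r = 0.975), the receptor of parathyroid hormone and its related protein. Sfrp2 went with the growth factor Igf1 (r = 0.99), Kif18b (r = 0.987) and Cacna1g (r = 0.983). Sostdc1 was near Hist1h4d (r = 0.941), Aspn (r = 0.938), a small proteoglycan of connective tissue, and Casp9 (r = 0.931). Dkk2 was near Aldh1a2 (r = 0.962), an enzyme of retinoic acid synthesis, Serinc2 (r = 0.952) and Fmo1 (r = 0.950). Sfrp1 was near Apod (r = 0.926), S100b (r = 0.924) and Pcp4 (r = 0.922), and Sfrp4 near Rnf150 (r = 0.919), S100a16 (r = 0.917) and Dcn (r = 0.902). Dkk3 was near Gulp1 (r = 0.971), Cntln (r = 0.971) and Tspan18 (r = 0.968). Among the members themselves, Sfrp2 and Dkk2 (r = 0.93) and Dkk1 and Wif1 (r = 0.928) were most alike, and Frzb and Dkk3 were the most opposed (r = -0.926).

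The rest of the Wnt pathway was read from 70 further genes in 7 lists, of which 41 passed the filter, and 0 of 41 passed the threshold between genotypes in any tissue or in either difference between tissues (limma). Without adjustment, p was below 0.05 for 5 of 41 in bone (8.13% of all genes), 4 in MC (15.4%) and 5 in the condyle (3.06%). edgeR and DESeq2 also called 0 of 41 in each of these comparisons. Of 19 Wnt ligand genes 4 passed the filter, Wnt2b, Wnt5a, Wnt5b and Wnt10b. In bone the smallest p was that of Lef1, a transcription factor that carries the Wnt signal and is itself a target of it, with 8.77 ± 2.28 normalized counts in Fgfr2+/S252W and 3.59 ± 0.543 in Fgfr2+/+ bone (SD, n = 3), without overlap. Its log2 fold change was 1.26 (± 0.34 SE, adjusted p = 0.220 by limma). Apc, part of the complex that degrades beta-catenin, followed with 0.45 (limma adjusted p = 0.350), and passed without the 2 control libraries that stood apart (0.61, limma adjusted p = 0.0284). With Fgfr2+/+ bone replicate 3 as the lone control, the one with a mitochondrial share near that of the mutants, the difference of Apc was 0.17 (limma adjusted p = 1.00). In MC these were Csnk1a1, a kinase of that complex, with -0.59 (limma adjusted p = 0.192), and Rspo3, which amplifies Wnt signals, with 37.6 to 58.1 normalized counts in Fgfr2+/S252W and 9.38 to 42.7 in Fgfr2+/+ MC and a log2 fold change of 1.15 (limma adjusted p = 0.199). Without the 2 control libraries that stood apart the difference was -0.25 for Csnk1a1 and 0.24 for Rspo3. Between control tissues 21 of 41 passed between bone and MC (34% of all genes), 8 higher in bone and 13 lower. Between bone and condyle 22 passed (37.4% of all genes), and between condyle and MC 28 (45%).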

How the data were processed

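RNA of 18 laser-captured libraries (3 tissues of 6 embryos) was amplified with NuGEN Ovation v2 and sequenced as read pairs. The deposited values are raw counts per gene that the authors made with STAR (genome mm10) and featureCounts 1.5.0-p1 (genes of Ensembl release 75), without normalization. The counter ignored strand and left out fragments with more than 1 place in the genome or more than 1 gene.

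Counts were analyzed in R 4.3.3. The filter asked for more than 1 FPKM in no fewer than 50% of the libraries (11469 of 38243 genes), and the counts left were scaled by TMM (edgeR 4.0.16) and fitted with voom and limma 3.58.1 to 1 mean for each of the 6 groups, with Benjamini-Hochberg adjustment over all genes kept and a threshold of 0.05. FPKM were computed here from the exon length of each gene. Residual degrees of freedom were 12, with 8.12 from the prior. The procedure was tested on simulated data. Tried as alternatives were DESeq2 1.42.0, the quasi-likelihood test of edgeR, other filters and factors, blocks and leaving out libraries. The 10 members, the pathway and marker lists and the tests were chosen with earlier results of these data known. The genes named are the members, the 2 pathway genes with the smallest p in bone and in MC, the mutated gene Fgfr2 and the 3 genes whose levels correlated best with each member kept by the filter. Acan, Col2a1, Col10a1, Ihh, Gm42418 and the 4 ligand genes that passed the filter were named after their values were seen. Normalized Fgfr2 counts (192 to 278 in bone, over both genotypes) cannot check a missense mutation. Libraries with the same embryo code are taken from 1 animal, and the correlation of their deviations from the means of their groups averaged 0 (-0.089 to 0.106 over 18 pairs). The 3 embryos per genotype are the replicates. In the main fit each gene had 1 estimate of spread, shared by the libraries of all 6 groups and moderated by the prior. It had no term for the embryo, so p-values do not measure the spread between the 3 embryos of a genotype alone. No 2 libraries were identical.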

Additional observations from a re-analysis of the deposited data

Results flagged for a closer look

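Sfrp1 drew attention because the genotype effect ran in opposite directions in bone and in MC and the test of that difference passed. The bone effect minus the MC effect was -1.97 on the log2 scale (limma adjusted p = 0.0104), with all 3 Fgfr2+/S252W libraries below all 3 Fgfr2+/+ libraries in bone and above all 3 in MC. The call was lost without Fgfr2+/S252W MC replicate 1 (limma adjusted p = 0.0724) or Fgfr2+/+ MC replicate 1 (limma adjusted p = 0.0518). It was also lost without both of these libraries (limma adjusted p = 0.0867), and without normalization factors (limma adjusted p = 0.458). With equal replicate numbers of the genotypes as a block it was lost as well (limma adjusted p = 0.0507). With Fgfr2+/+ bone replicate 3 as the lone bone control the difference was -1.85. No outlier test was run on groups of 3 libraries.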

How the results depend on the processing

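Of the genes counted past the threshold, the number in bone was 10 as reported, 4 with edgeR, 18 with DESeq2, 21 with filterByExpr, 53 without a filter, 141 with the bone libraries alone, 1 without normalization factors and 314 without the 2 control libraries that stood apart. In MC it was 0 as reported, 90 with edgeR, 423 with DESeq2 and 45 without a filter, and in the condyle DESeq2 gave 3. For bone minus MC it was 6, against 94 with DESeq2, 12 with filterByExpr, 16 without a filter, 16 without the 2 control libraries and 0 without normalization factors, and for bone minus condyle 0, against 5 with DESeq2 and 4 without the 2 control libraries. Control bone against MC gave 3897 genes, and 5916 without a filter. The members past the threshold went from 0 to 1 in bone with DESeq2 (Sfrp1), with the bone libraries alone (Sfrp2) and without the 2 control libraries (Sfrp1), and in MC with edgeR and DESeq2 (both Sfrp1), and from 1 to 0 for bone minus MC without normalization factors (Sfrp1). Leaving out more than 1 library, and dropping normalization factors, were chosen after seeing the data.

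With equal replicate numbers of the genotypes as a block, which the correlations of deviations from the group means did not show to be pairs (mean 0.045, range -0.175 to 0.309, 9 pairs), bone gave 7 genes, MC and condyle 0, and bone minus MC 1 gene and 0 members, chosen after seeing the data, with Sfrp1 at -1.97 (limma adjusted p = 0.0507) and Sfrp4 at 0.27. With the embryo as a block, for which equal codes mark 1 animal, Sfrp2 in bone minus condyle turned to 0.52, the control bone against condyle calls of Dkk2 (adjusted p = 0.0849) and Sost (adjusted p = 0.109) were lost, and no other call on a member changed.

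Differences that turned sign did so from values that had not passed. In bone minus MC these were Sfrp4 (0.45 with edgeR, 0.64 with DESeq2, 1.42 without the 2 control libraries, 0.14 without factors) and Frzb (-0.014 with DESeq2, -0.19 without the 2 control libraries). In bone minus condyle they were Sfrp2 (1.00 with edgeR, 1.01 with DESeq2), Frzb (0.052 without a filter, 0.28 without the 2 control libraries) and Sostdc1 (-0.33 and -0.20). In bone they were Frzb (0.029 without a filter, 0.27 without the 2 control libraries, 0.17 without factors) and Dkk1 (0.19 without the 2 control libraries), and in the condyle Frzb (-0.023 without a filter). In MC they were Sfrp4 (-0.52), Frzb (0.47), Dkk2 (-0.056) and Sostdc1 (0.94) without the 2 control libraries, and Frzb (0.0047) and Sostdc1 (0.085) without factors. In control bone against MC they were Dkk3 (-0.021 with edgeR, -0.045 with DESeq2, -0.22 without the 2 control libraries) and Sostdc1 (0.58 without the 2 control libraries). The cause was not tested.

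Without MC replicate 1 of both genotypes, bone minus MC gave 2 genes and 0 members, and signs turned for Sfrp2 (-0.061), Sfrp4 (-0.87), Frzb (0.64) and Sostdc1 (0.69) in MC and for Sfrp4 (1.99) and Frzb (-0.65) in bone minus MC. Without the 3 bone and MC libraries that stood apart, bone minus MC gave 25 genes and 1 member, with Sfrp4 at 1.76 and Frzb at -0.36. With control bone replicate 3 as the lone bone control, bone gave 0 genes and bone minus MC 0 genes and 0 members, and signs turned for Wif1 in bone (-0.39) and for Frzb (-0.52) and Sostdc1 (0.042) in bone minus MC. The cause was not tested.

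With 1 library left out at a time, genes past the threshold numbered 0 to 92 in bone, 0 to 138 in MC, 0 to 26 in bone minus MC and 0 to 1 in bone minus condyle, and members 0 to 1 in MC and 0 to 1 in bone minus MC. The log2 differences that turned sign ranged in bone from -0.19 to 0.26 (Frzb), -0.67 to 0.20 (Dkk1) and -0.044 to 0.44 (Wif1). In MC they ranged from -0.47 to 0.47 (Frzb), -0.60 to 0.94 (Sostdc1), -0.52 to 3.04 (Sfrp4) and -0.056 to 1.20 (Dkk2). In the condyle the ranges were -0.0051 to 0.15 (Sfrp1), -0.32 to 0.095 (Wif1), -0.80 to 2.02 (Sfrp4), -0.32 to 0.18 (Frzb), -0.029 to 0.44 (Dkk3), -2.50 to 0.33 (Sfrp2) and -2.69 to 0.64 (Sostdc1). In bone minus MC they were -0.48 to 0.45 (Frzb) and -1.92 to 1.65 (Sfrp4), and in bone minus condyle -1.49 to 1.34 (Sfrp2), -0.21 to 0.30 (Frzb), -0.91 to 1.91 (Sfrp4), -1.56 to 1.78 (Sostdc1) and -0.15 to 2.24 (Dkk2). Between control tissues they were -0.30 to 0.52 (Dkk3, bone against MC), -1.53 to 0.058 (Sostdc1, bone against MC) and -2.59 to 1.31 (Sfrp4, condyle against MC).

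Among control tissues, calls on Dkk1 between condyle and MC, on Dkk2, Frzb and Sfrp4 between bone and MC and on Dkk2, Sost and Sostdc1 between bone and condyle were lost under at least 1 alternative. Depth limits Sfrp4 and Sost in MC and condyle, Sfrp2, Dkk2 and Sostdc1 in the condyle and Dkk1 in MC, where few fragments set the value.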
